A study of Agaricus bisporus with 12 samples.

Results

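Molecular chaperones and heat shock proteins were followed in the compost mycelium of the button mushroom Agaricus bisporus through one commercial crop. The members were chosen by a rule on the annotation's text: a gene entered when the text of its first KEGG Orthology hit named a heat shock protein, a chaperone, DnaJ, DnaK, a T-complex protein, prefoldin, a peptidyl-prolyl isomerase, a protein disulfide isomerase or calnexin, with proteasome, transcription factor and histone hits left out, and 1 gene was added by its number, the Hsp70 that RefSeq names hspB. This gave 83 of the 9502 genes with a read in any library, and all 83 had enough reads to be tested. By role they are 33 J proteins, 12 prolyl isomerases, 8 subunits of the cytosolic chaperonin TRiC, 7 genes of the Hsp70 machine, 7 disulfide isomerases, 7 assembly or metal chaperones, 5 prefoldin subunits, 3 mitochondrial chaperonin genes and 1 Hsp90. Names are the annotation's own, and 13 members, of which 12 are J proteins, rest on a match weaker than an E value of 1e-20. The rule named no calnexin, and the small heat shock proteins annotated as the HSP20 family lie outside it.

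Strain A15, a commercial heterokaryon, was grown on compost made from wheat straw and manure. Mycelium was sampled at spawning (colonised compost, 16 days), at pinning, at the first flush of mushrooms, after the first flush, at the second flush and after the second flush, in 2 libraries per stage and 12 in all. RNA was taken from the compost, so the values describe the feeding mycelium and not the mushrooms. Whether replicate libraries come from different beds is not stated. The p-values therefore reflect only how far these samples scatter, which may be a technical spread. In bulk RNA, fewer hyphae of one kind and less of a transcript per cell cannot be told apart.

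Chaperones bind unfolded proteins and help them to fold. Hsp70 does so in cycles of ATP hydrolysis driven by J proteins and nucleotide exchange factors, Hsp90 acts on partly folded clients, and the ring-shaped chaperonins enclose a chain: TRiC with prefoldin in the cytosol, chiefly for actin and tubulin, and Hsp60 with Hsp10 in mitochondria. Disulfide and prolyl isomerases speed up bond changes that limit folding, the disulfide isomerases mostly in the endoplasmic reticulum, the entry of the secretion pathway that a compost-degrading fungus uses for its enzymes.

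The libraries held about 7266000 to 9337000 uniquely placed reads, rounded to 1000. Levels are given in RPKM, a read count scaled by gene length and library total. Fold changes are log2 values from edgeR after scaling by TMM, so they can differ from the ratio of the RPKM values. Every stage value rests on n = 2 libraries. A call needed an edgeR p under 0.05 after Benjamini-Hochberg adjustment across the 8814 genes tested. The library codes of the first-flush pair carry another letter than the rest. What it marks is not given, and it cannot be told apart from the stage. Replicates lay closest at pinning and farthest apart after the first flush, where the median member differed by 0.225 between the libraries on the log2(RPKM + 1) scale and the median gene by 0.252.

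At spawning 3.21 and 3.12% of all reads fell on members. The share was 2.48 and 2.41% at pinning, 2.66 and 2.54% at the first flush, 1.81 and 1.97% after it, 2.73 and 2.97% at the second flush, and 2.24 and 2.36% after that. The share was thus highest at spawning and lowest after the first flush, with no overlap between either stage and any other. The Hsp70 gene hspB alone made up 33.4 and 32.3% of these reads at spawning and 19.4 and 19.5% after the first flush. Of the 83 members 72 changed over the 6 stages (edgeR F test, 86.75%), against a background of 85.6% of all tested genes. By stage mean 35 members (42.17%) were highest at the first flush, against 30.69% of all genes, and 19 (22.89%) at spawning, against 18.32%. Spawning was the lowest stage for 36 members (43.37%), close to the 44.02% of all genes.

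**Figure D1:**
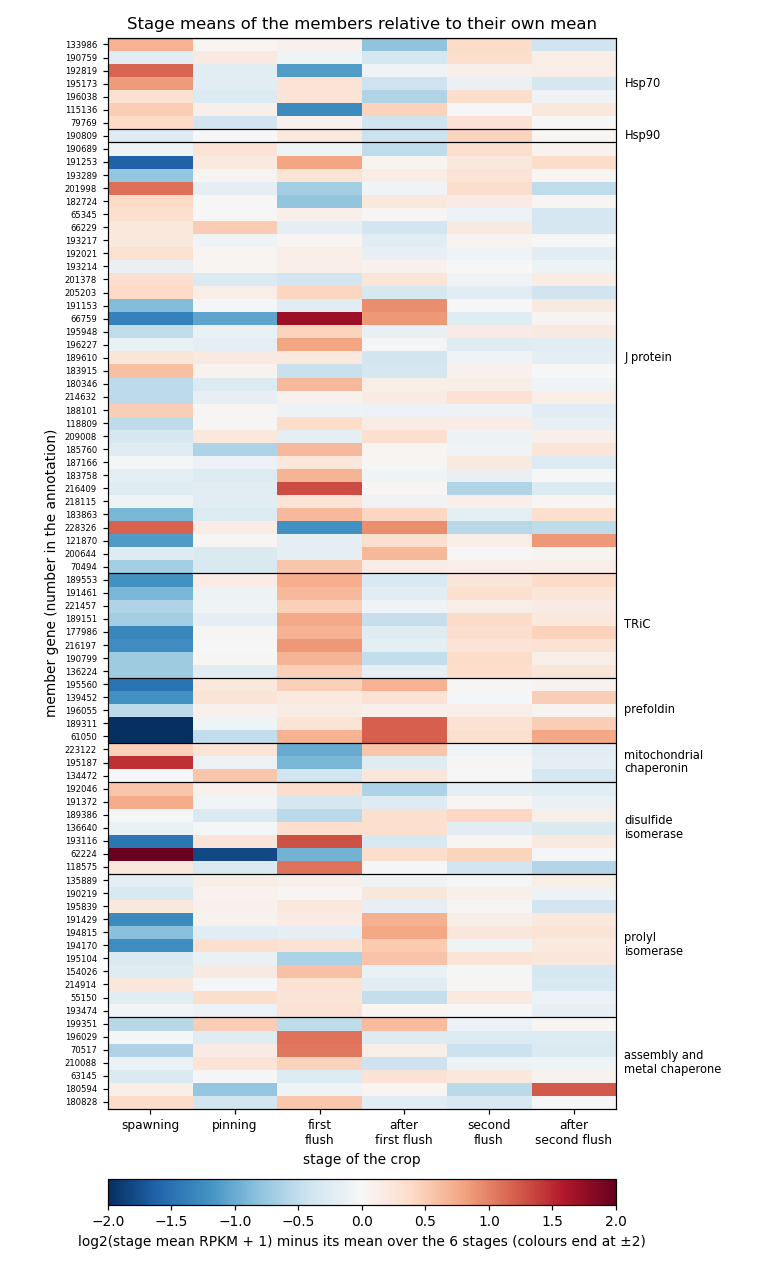
Stage means of 82 of the 83 members as log2(RPKM + 1), minus each member's mean over the 6 stages; rows are genes grouped by role and ordered by level, columns are the stages in order, and each mean is over 2 libraries. TRiC subunits are lowest at spawning and highest at the first flush, prefoldin subunits are lowest at spawning, and the mitochondrial chaperonin genes 223122 and 195187 are low at the first flush.

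At pinning against spawning 24 members rose and 23 fell, against 29.3% and 25.2% of all genes called higher and lower. The members' median change was 0.14, beside 0.05 over all genes. With scaling to library totals alone the same split was 34 to 17, and the median of all genes was 0.18. At the first flush against pinning 20 members rose and 17 fell, with backgrounds of 25.1% and 23.6% and medians of 0.02 and 0.03. Library totals alone gave 31 to 14 there, with the median of all genes at 0.26. Leaving out pinning replicate 2 or first-flush replicate 1 left 12 or 13 rises at this step, and leaving out pinning replicate 1 left 15 falls at the step before.

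After the first flush against the first flush 21 members rose and 34 fell (40.964% of members lower), where the backgrounds were 26.1% and 26%. The members' median was -0.27 and that of all genes -0.01. At the second flush against the stage after the first flush 19 rose and 11 fell, with backgrounds of 11.3% and 11% and medians of 0.16 and -0.01. Without second-flush replicate 2 these counts were 8 and 4, without second-flush replicate 1 there were 7 falls, and with library totals alone the split was 14 to 16 beside a median of -0.14 over all genes. The last step called few genes: after the second flush against the second flush 3 members rose and 2 fell, against 5.29% and 2.89% of all genes. Without any 1 of the 4 libraries of that step 1 member rose. Without second-flush replicate 2, or either library taken after the second flush, 1 member fell, and without either library taken after the first flush 8 fell. From end to start, after the second flush against spawning, 25 members rose and 31 fell, against 31.9% and 27.6%, with medians of -0.13 and 0.06. Library totals alone turned this split to 34 to 21 and the members' median to 0.18, beside 0.36 for all genes. Adjacent steps share the libraries of the stage between them, so a rise and the fall after it are not independent.

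**Figure D2:**
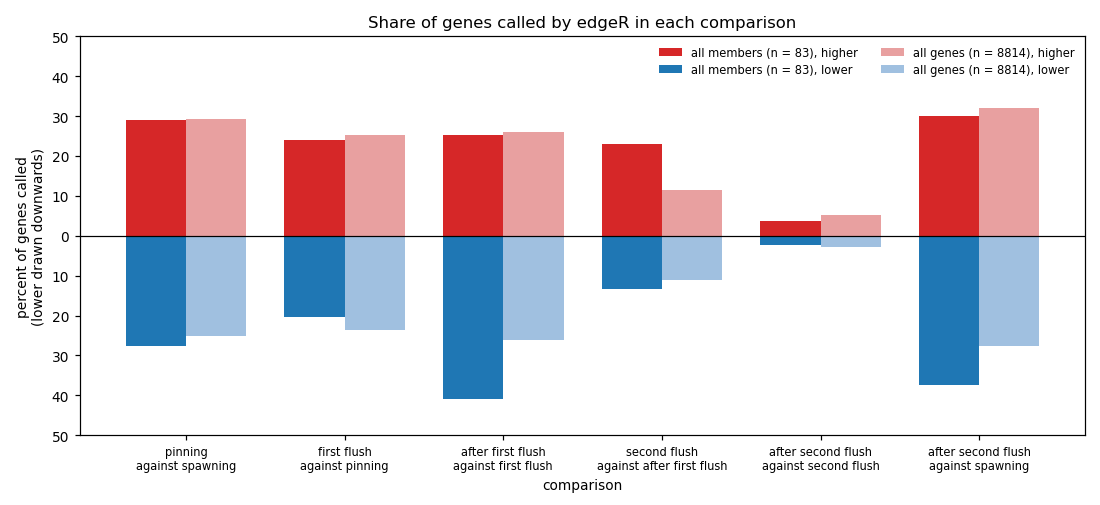
Percent of the 83 members and of all 8814 tested genes called higher (upwards) or lower (downwards) by edgeR in each comparison of 2 stages, with the later stage named first. The members' share stands farthest above that of all genes for falls after the first flush, 40.964% against 26%, and for rises at the second flush, 22.892% against 11.3%.

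The change after the second flush also differed from the change after the first flush in 36 members, 21 with a positive and 15 with a negative difference, against a background of 39.4% of all genes. By sign, 25.301% of members were positive and 18.072% negative, beside 19.356% and 20.025% of all genes. A positive difference means that the second-flush step fell less, or rose more, than the first-flush step.

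Within the Hsp70 machine, 5 of the 7 genes fell at pinning and none rose. After the first flush 4 fell and 2 rose, at the second flush 4 rose, and from end to start 6 were lower. Of all genes 25.2% fell at pinning, and 26% fell and 26.1% rose after the first flush. At the second flush 11.3% of all genes rose, and from end to start 27.6% were lower. The direction of the class median was the same in every alternative fit for these 4 comparisons, while at the first flush it turned from -0.17 to 0.05 in at least 1 of them. The 4 falls after the first flush were those of hspB, 79769, the BiP type and the Hsp110 type, and the 2 rises those of the DnaK and GrpE genes described with the mitochondrial chaperonin.

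The gene hspB, annotated as heat shock 70kDa protein 1/8, a family of cytosolic Hsp70s, was the most abundant member. It had 4688 and 4407 RPKM at spawning, 2998 and 2747 at pinning, 2939 and 3020 at the first flush, 1534 and 1682 after it, 3329 and 3915 at the second flush, and 2224 and 2039 after that. Its libraries overlapped only between pinning and the first flush. Among all genes it ranked 7 and 9 at spawning, 53 and 41 after the first flush, and 8 and 7 at the second flush. It fell at pinning by 0.79 (SE 0.14, edgeR adjusted p = 0.0005), fell after the first flush by 0.92 (SE 0.14, edgeR adjusted p = 0.00023), rose at the second flush by a log2 change of 1.3 (SE 0.14, edgeR adjusted p = 0.000449), and fell again afterwards by 0.82 (SE 0.14, edgeR adjusted p = 0.00495). From end to start it was lower by a log2 change of -1.40 (SE 0.14, edgeR adjusted p = 7.77e-06).

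The next Hsp70 of the same annotation, gene 190759 (hspA in RefSeq), had 872 and 858 RPKM at spawning, 1166 and 1118 at pinning, 1026 and 886 at the first flush, 675 and 915 after it, 1247 and 1311 at the second flush, and 1092 and 1137 after that. It did not share the high spawning level of hspB, and the ratio of 190759 to hspB was 0.186 and 0.195 at spawning, against 0.491 and 0.558 after the second flush. It rose only at the second flush, by 0.81 (SE 0.15, edgeR adjusted p = 0.00529), and its fall at the first flush (log2 change -0.48) was lost under library totals and without any of 3 of the 4 libraries compared. Gene 79769, with the same annotation, lay between 97.9 and 184 RPKM and changed in the direction of hspB at pinning (-0.93), after the first flush (-0.52, lost without first-flush replicate 1) and at the second flush (0.82). Only uniquely placed reads were counted, so the levels of these close relatives are uncertain.

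Gene 196038, of the Hsp110 type that acts as a nucleotide exchange factor for Hsp70, had 436 and 408 RPKM at spawning, 284 and 277 at pinning, 435 and 386 at the first flush, 227 and 223 after it, 410 and 457 at the second flush, and 304 and 346 after that. It fell at pinning (-0.72) and after the first flush (-0.90), and rose at the second flush by 1.08 (SE 0.14, edgeR adjusted p = 0.000986). Both libraries taken after the first flush lay below all others.

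The single Hsp90, gene 190809, which bears the bacterial name HtpG, had 746 and 641 RPKM at spawning, 824 and 822 at pinning, 979 and 935 at the first flush, 555 and 670 after it, 1082 and 1162 at the second flush, and 861 and 836 after that. Both second-flush libraries were above all others. It fell after the first flush by 0.67 (SE 0.13, edgeR adjusted p = 0.00151) and rose at the second flush by 1.0 (SE 0.13, edgeR adjusted p = 0.00119). It was not called at pinning (0.11), at the first flush (-0.01), after the second flush (-0.45) or from end to start (-0.01).

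Gene 190689 is the most abundant J protein and belongs to the DNAJA2 type, whose yeast relative Ydj1 is a main cytosolic partner of Hsp70. It had 1031 and 982 RPKM at spawning, 1283 and 1301 at pinning, 982 and 1038 at the first flush, 730 and 779 after it, 1259 and 1417 at the second flush, and 1049 and 1183 after that. The stage after the first flush was the lowest, without overlap. The J protein rose at the second flush by 0.96 (SE 0.14, edgeR adjusted p = 0.00152), as Hsp90, hspB and 190759 did. Its fall after the first flush (-0.45) was lost without first-flush replicate 2 or without replicate 1 of the later stage.

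**Figure D3:**
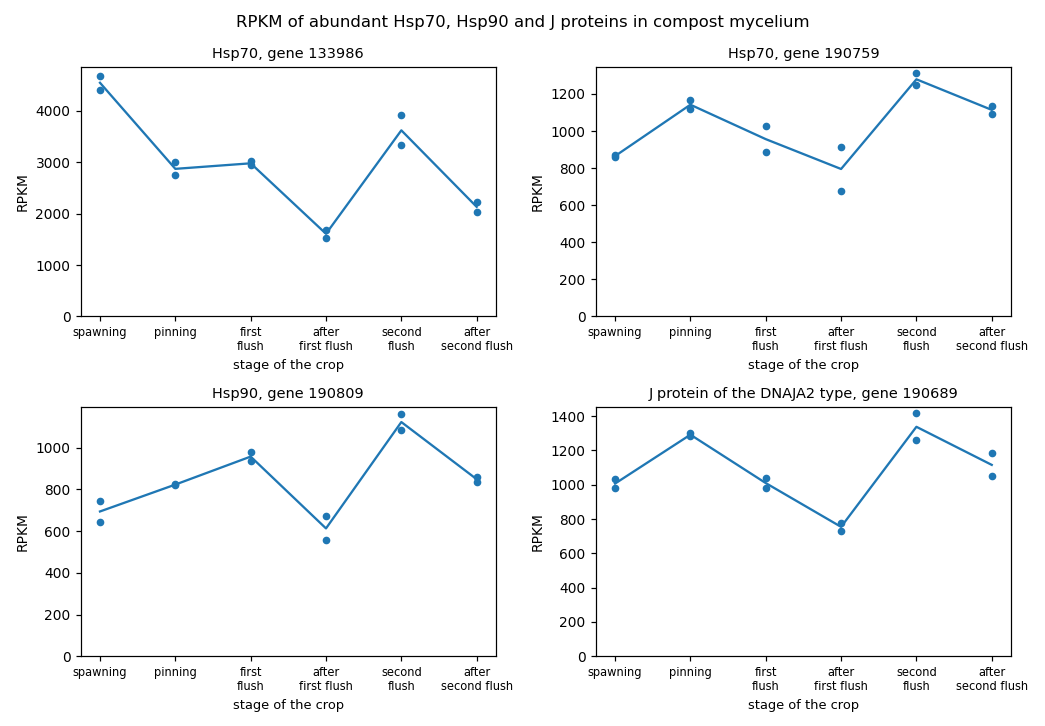
RPKM of Hsp70 genes hspB and 190759, Hsp90 gene 190809 and J protein gene 190689 at the 6 stages; points are the 2 libraries of a stage and lines join their means. The mean of each gene is lowest after the first flush, and the means of 190759, 190809 and 190689 are highest at the second flush, while hspB is highest at spawning, with 4688 and 4407 RPKM.

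TRiC folds actin and tubulin. Its 8 subunits moved together: each had its lowest stage mean at spawning and its highest at the first flush, beside 44.02% and 30.69% of all genes. At pinning 6 of 8 rose and none fell, at the first flush 6 rose and none fell, after the first flush all 8 fell, at the second flush 6 rose and none fell, and from end to start all 8 were higher. Of all genes 29.3% rose at pinning, 25.1% at the first flush and 11.3% at the second flush. After the first flush 26% of all genes fell, and from end to start 31.9% were higher. The median over the subunits was 67.8 and 64.7 RPKM at spawning, 124 and 114 at pinning, 207 and 194 at the first flush, 79.7 and 119 after it, 156 and 148 at the second flush, and 150 and 156 after that.

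The called changes kept their direction in every alternative fit, but the counts depended on single libraries. Leaving out either pinning library, first-flush replicate 1 or second-flush replicate 2 also left fewer rises over all genes at the same steps. The 6 rises at the first flush became 1 without pinning replicate 2, and 3 without pinning replicate 1 or first-flush replicate 1. The 6 rises at the second flush became 2 without second-flush replicate 2. All 8 falls after the first flush were called in every alternative. The proteasome genes, read beside them from a list of 46, went 27 higher and 6 lower at pinning, 11 and 3 at the first flush, and 5 higher against 28 lower after it. At pinning 58.7% were higher and 13.0% lower, beside 29.3% and 25.2% of all genes. At the first flush 23.9% were higher, near the 25.1% of all genes, and 6.52% lower, beside 23.6%. After it 10.9% were higher and 60.9% lower, beside 26.1% and 26%.

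The most abundant subunit by mean level, eta (gene 189553), had 68.0 and 69.5 RPKM at spawning, 188 and 166 at pinning, 272 and 257 at the first flush, 88.0 and 171 after it, 189 and 191 at the second flush, and 205 and 215 after that. Its libraries after the first flush were far apart, and replicate 2 lay within the pinning pair. It rose at pinning by 1.23 (SE 0.24, edgeR adjusted p = 0.00139) and fell after the first flush by 1.05 (SE 0.24, edgeR adjusted p = 0.0037).

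Gamma (gene 189151) fell most after the first flush, to 76.6 and 111 RPKM after it, against 228 and 210 at the first flush (log2 change -1.25, SE 0.17, edgeR adjusted p = 0.000135). Alpha (gene 190799) was at 128 and 133 RPKM at the second flush, against 56.7 and 86.1 after the first flush, a rise of 1.0 (SE 0.18, edgeR adjusted p = 0.00461). Theta (gene 221457) fell least after the first flush (-0.56), with 134 and 133 RPKM after it, against 207 and 180. Within a library the highest subunit stood 1.57 to 2.36 times above the lowest.

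After the second flush no TRiC subunit was called against the second flush, and the 8 changes lay between -0.30 and 0.10. In the test of the difference between the after-flush steps 7 of 8 subunits were called, all positive, with a class median of 0.96. This test called 19.356% of all genes positive and 20.025% negative. The subunit not called was zeta (gene 136224, 0.52). For eta the difference (1.15) was lost when first-flush replicate 1, second-flush replicate 1 or replicate 2 of the stage after the second flush was left out.

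Prefoldin, the complex that hands unfolded actin and tubulin to TRiC, had all 5 annotated subunits lowest at spawning, beside 44.02% of all genes. At pinning 4 rose and none fell, beside 29.3% and 25.2% of all genes. From end to start 4 were higher and none lower, beside 31.9% and 27.6%. Library totals alone called all 5 higher in both. At the first flush 1 rose (20%, beside 25.1% of all genes). At the second flush 3 fell and none rose, beside 11% and 11.3% of all genes, and fewer falls were called without second-flush replicate 2. The class did not follow TRiC after the first flush, where 2 subunits rose (40%, beside 26.1% of all genes) and none fell (beside 26%). Without any 1 of 8 libraries, among them both of pinning and both of the first flush, 1 rise was called there.

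The beta subunit (gene 61050) had the widest range of stage means of the members above 20 RPKM. It was at 9.77 and 5.40 RPKM at spawning, 30.5 and 36.0 at pinning, 71.8 and 81.3 at the first flush, 99.8 and 117 after it, 62.0 and 55.5 at the second flush, and 81.1 and 81.7 after that. Spawning and pinning lay below every later library. It rose at pinning by 2.0 (SE 0.25, edgeR adjusted p = 5.43e-05) and at the first flush by 0.98 (SE 0.19, edgeR adjusted p = 0.00153). Its end-to-start change was 3.12 (SE 0.24, edgeR adjusted p = 1.38e-06), and its rise after the first flush (0.48) was lost in 10 of the alternatives.

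Subunit 1 (gene 189311) had 12.5 and 10.6 RPKM at spawning, 47.7 and 56.0 at pinning, 65.2 and 68.8 at the first flush, 125 and 131 after it, 67.6 and 68.0 at the second flush, and 77.9 and 78.2 after that. It rose at pinning by 2.03 (SE 0.15, edgeR adjusted p = 1.75e-06) and after the first flush by 0.91 (SE 0.13, edgeR adjusted p = 0.000156), and fell at the second flush by 0.79 (SE 0.13, edgeR adjusted p = 0.00281). The stage after the first flush was the highest, without overlap.

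The alpha subunit (gene 195560) was the most abundant, with 120 and 116 RPKM at pinning against 36.4 and 35.7 at spawning (log2 change 1.58), and subunit 2 (gene 139452) had 99.1 and 102 against 36.7 and 34.6 (1.37). Subunit 2 was also called higher after the second flush (0.47), a call lost in 11 alternatives. Subunit 4 (gene 196055) was not called in any comparison of stages, with 58.9 and 40.5 RPKM at spawning and 65.4 to 85.7 later.

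**Figure D4:**
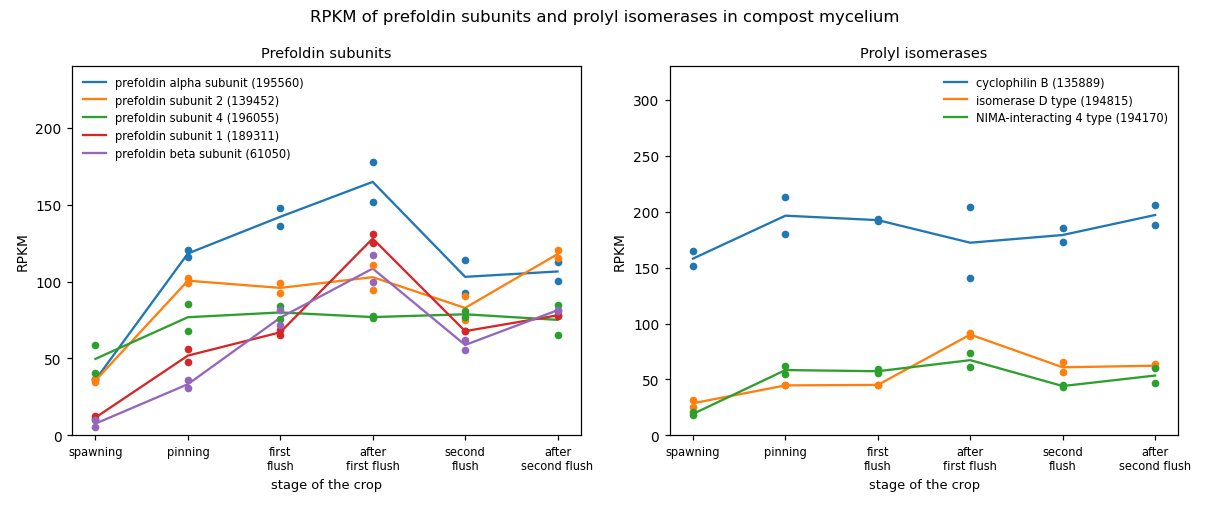
RPKM of the 5 prefoldin subunits (left) and of 3 prolyl isomerases (right) at the 6 stages; points are the 2 libraries of a stage and lines join their means. All 5 prefoldin subunits and all 3 isomerases shown have their lowest mean at spawning; prefoldin subunit 1 reaches 125 and 131 RPKM after the first flush, and isomerase D gene 194815 91.5 and 88.7.

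Genes annotated with the bacterial names GroEL, GroES, DnaK, GrpE and DnaJ are relatives of the folding machine of the mitochondrial matrix in fungi. All 3 chaperonin genes fell at the first flush, all 3 rose after it, and all 3 were lower from end to start, in the same direction in every alternative. Over all genes 23.6% fell at the first flush, 26.1% rose after it and 27.6% were lower from end to start. With library totals alone 2 of the 3 chaperonin genes were called lower from end to start. The only mitochondrial import gene read beside them, annotated as TOM40, fell at the first flush (-0.83) and rose after it (0.62) as well. The fall at the first flush was called for 3 of 3 in every fit, and the rise after it for 2 or 3.

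Hsp60 (GroEL, gene 195187) had 790 and 784 RPKM at spawning, 256 and 271 at pinning, 163 and 139 at the first flush, 242 and 244 after it, 256 and 324 at the second flush, and 216 and 283 after that. Spawning stood far above the later stages. The fall at pinning was -1.71 (SE 0.18, edgeR adjusted p = 1.53e-05) and the fall at the first flush -1.03 (SE 0.18, edgeR adjusted p = 0.000653). The rise after the first flush (0.66) was lost without first-flush replicate 2.

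Hsp10 (GroES, gene 223122), the lid of the Hsp60 chamber, had 607 and 627 RPKM at spawning, 523 and 545 at pinning, 214 and 224 at the first flush, 746 and 547 after it, 412 and 429 at the second flush, and 328 and 431 after that. It was not called at pinning, where its change was -0.34 (SE 0.17, edgeR adjusted p = 0.116). The ratio of Hsp60 to Hsp10 was 0.489 and 0.498 at pinning, against 1.3 and 1.25 at spawning. Hsp10 fell at the first flush by 1.51 (SE 0.18, edgeR adjusted p = 6.2e-05) and rose after it by 1.53 (SE 0.18, edgeR adjusted p = 4.13e-05).

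A further GroES gene, 134472, was at 50.5 and 55.9 RPKM at the first flush, against 111 and 95.2 at pinning, a fall of 1.18 (SE 0.18, edgeR adjusted p = 0.000312). The ratio of 134472 to 223122 ran from 0.102 to 0.25 over the libraries. Its called rises at pinning (0.47) and after the first flush (0.60) were lost in 9 and in 2 alternatives.

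The DnaK gene 192819 (hspC in RefSeq), the mitochondrial Hsp70 by its name, had 1372 and 1406 RPKM at spawning, 522 and 546 at pinning, 296 and 272 at the first flush, 594 and 573 after it, 587 and 744 at the second flush, and 589 and 765 after that. It fell at pinning by 1.51 (SE 0.17, edgeR adjusted p = 2.98e-05) and at the first flush by 1.14 (SE 0.17, edgeR adjusted p = 0.0003), and rose after the first flush by 1.01 (SE 0.17, edgeR adjusted p = 0.000527). The first-flush pair lay below all other libraries and the spawning pair above them.

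GrpE (gene 115136), the nucleotide exchange factor of this Hsp70, had 172 and 195 RPKM at spawning, 127 and 156 at pinning, 62.1 and 44.9 at the first flush, 203 and 158 after it, 129 and 135 at the second flush, and 128 and 176 after that. It fell at the first flush by 1.63 (SE 0.21, edgeR adjusted p = 0.000143) and rose after it by 1.73 (SE 0.21, edgeR adjusted p = 7.7e-05). At pinning its change of -0.51 was not called.

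The 3 genes annotated as DnaJ differed. Gene 182724 had 60.9 and 63.4 RPKM at the first flush, against 110 and 105 at pinning (log2 change -1.01), and rose to 142 and 111 after the flush (0.99). Gene 180346 did the reverse, with 48.0 and 43.8 RPKM at the first flush, against 24.4 and 22.9 at pinning (0.73), and a fall after it (-0.58). Gene 200644, a weak match at 5.37 to 14.2 RPKM, rose after the first flush (0.90), a call lost without first-flush replicate 2. Which of the 3 products enters mitochondria is not given in the files. Genes 182724, 180346 and 200644 were set side by side after their values were seen.

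**Figure D5:**
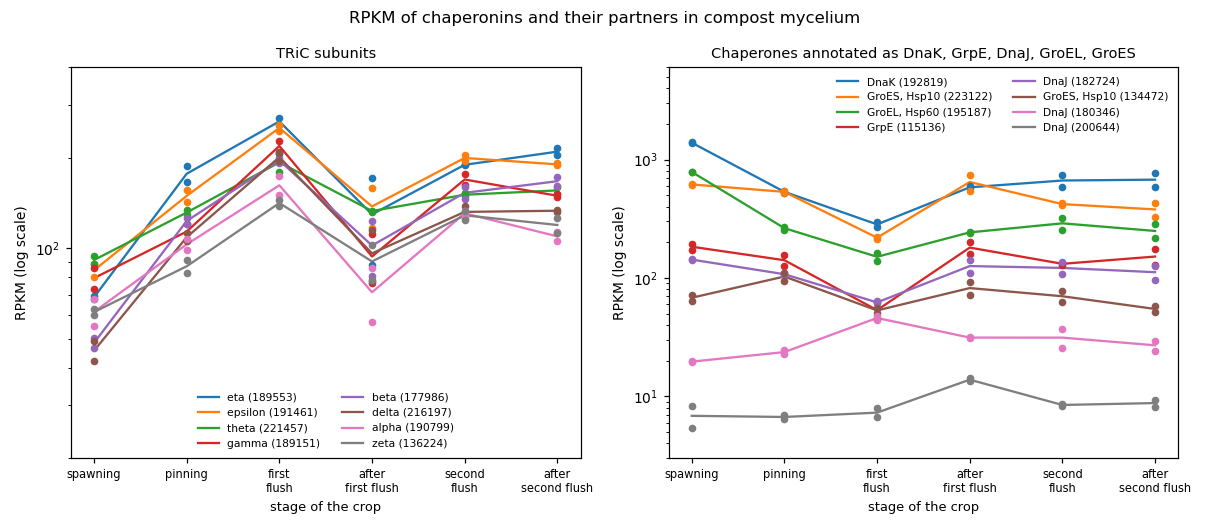
RPKM on a log axis of the 8 TRiC subunits (left) and of the 8 genes annotated as DnaK, GrpE, DnaJ, GroEL and GroES (right) at the 6 stages; points are the 2 libraries of a stage and lines join their means. Every TRiC subunit has its highest mean at the first flush, where 192819, 223122, 195187, 115136, 182724 and 134472 have their lowest, and the DnaJ genes 180346 and 200644 do not.

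After the second flush none of these genes was called against the second flush. The difference between the after-flush steps was called negative for all 3 chaperonin genes (class median -1.0), for DnaK (-1.04), for GrpE (-1.57) and for DnaJ gene 182724 (-1.16). It was called negative for 20.025% of all genes and positive for 19.356%. Hsp10 gene 223122 had the largest of the 3 chaperonin differences, -1.73 (SE 0.25, edgeR adjusted p = 0.000294).

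In the endoplasmic reticulum class, gene 195173 is the Hsp70 of the BiP type, the main chaperone of that compartment. It had 892 and 959 RPKM at spawning, 428 and 449 at pinning, 666 and 569 at the first flush, 354 and 415 after it, 492 and 441 at the second flush, and 353 and 465 after that. Spawning and the first flush stood apart from each other and above the rest. BiP fell at pinning by 1.21 (SE 0.16, edgeR adjusted p = 9.66e-05), and after the first flush by 0.71 (SE 0.16, edgeR adjusted p = 0.00357), and its change at the first flush, 0.27, was not called.

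Of the 7 disulfide isomerases 3 fell and 1 rose at pinning, 2 rose and 2 fell at the first flush, and 3 fell and 2 rose after it. At these steps the shares of all genes called higher and lower were 29.3% and 25.2%, 25.1% and 23.6%, and 26.1% and 26%. The disulfide isomerases stood at 14.3% and 42.9%, 28.6% and 28.6%, and 28.6% and 42.9%. From end to start 5 were lower and 1 higher, and with library totals alone, or without any 1 of the 4 libraries compared, 3 were lower. The 2 falls at the first flush, of 191372 and 189386, were lost under those same settings at their own step, with either library of pinning or the first flush left out. Without pinning replicate 1 or first-flush replicate 1, 1 rise was called at the first flush. After it, 1 rise was called without either library of pinning or of the first flush, without replicate 1 of the later stage, or without either second-flush library.

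Gene 192046, annotated as disulfide isomerase A1 and the most abundant, had 1228 and 1340 RPKM at spawning, 919 and 933 at pinning, 1180 and 1046 at the first flush, 546 and 588 after it, 748 and 795 at the second flush, and 693 and 804 after that. It fell at pinning by 0.61 (SE 0.14, edgeR adjusted p = 0.00312) and after the first flush by 1.0 (SE 0.14, edgeR adjusted p = 0.000141). Its rise at the second flush (0.57) was lost without second-flush replicate 2.

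Gene 193116, annotated as disulfide isomerase A6, was low at spawning: 6.77 and 5.46 RPKM, then 22.6 and 21.9 at pinning, 49.0 and 42.0 at the first flush, 13.4 and 15.7 after it, 16.8 and 21.0 at the second flush, and 20.7 and 21.1 after that. It rose at pinning by 1.73 (SE 0.19, edgeR adjusted p = 2.23e-05) and at the first flush by 0.81 (SE 0.17, edgeR adjusted p = 0.002), and fell after it by 1.67 (SE 0.17, edgeR adjusted p = 1.79e-05).

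The A6-type gene 191372 had 288 and 295 RPKM at pinning, against 511 and 504 at spawning (-0.93), and the A1-type gene 189386 rose after the first flush to 187 and 194 RPKM, against 105 and 105 at the flush (0.83). The A6-type gene 136640 lay between 22.3 and 45.7 RPKM and gene 118575 between 1.19 and 6.66 RPKM.

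Gene 62224, a further A1-type gene, had 53.4 and 34.2 RPKM at spawning, 2.38 and 2.15 at pinning, 5.06 and 4.72 at the first flush, 20.9 and 6.21 after it, 14.8 and 14.1 at the second flush, and 8.29 and 11.8 after that. Its fall at pinning of 4.39 (SE 0.54, edgeR adjusted p = 0.00016) was the deepest of any member in any comparison, and it was the only member with replicates more than 2-fold apart on the log2(RPKM + 1) scale, after the first flush. Its rise there (1.43) was lost in 8 alternatives.

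Beside these, a list of 30 genes for import, glycosylation and quality control in the endoplasmic reticulum had 7 higher and 6 lower at pinning, 12 higher and 2 lower at the first flush, and 2 higher and 12 lower after it. Their shares called higher and lower were 23.3% and 20%, 40% and 6.67%, and 6.67% and 40%. All genes stood at 29.3% and 25.2%, 25.1% and 23.6%, and 26.1% and 26%. J proteins of types known from the lumen of that compartment in yeast or human cells were read as well, chosen after their values were seen. The DNAJC3-type gene 196227 was at 61.0 and 47.3 RPKM at the first flush, against 27.2 and 26.6 at pinning (0.78), a call lost without either pinning library or without first-flush replicate 1. The SCJ1-type gene 65345 lay between 73.8 and 135 RPKM and was lower from end to start (-0.95).

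Among the 33 J proteins, which deliver clients to Hsp70 and stimulate its ATPase, 6 rose and 11 fell at pinning, 9 rose and 7 fell at the first flush, 7 rose and 11 fell after it, 4 rose and 4 fell at the second flush, and 1 fell after that. From end to start 7 rose and 13 fell. As shares of the class these were 18.2% higher and 33.3% lower at pinning, beside 29.3% and 25.2% of all genes, and 27.3% and 21.2% at the first flush, near the 25.1% and 23.6% of all genes. After the first flush they were 21.2% and 33.3%, beside 26.1% and 26%. At the second flush they were 12.1% and 12.1%, near the 11.3% and 11% of all genes. After that they were 0% and 3.03%, beside 5.29% and 2.89%, and from end to start 21.2% and 39.4%, beside 31.9% and 27.6%. The class median changed sign between scalings or replicates at the first flush, at the second flush and from end to start. With library totals alone the counts were 8 higher and 7 lower at pinning, and 12 higher and 9 lower from end to start. The 11 falls at pinning became 5 to 7 without any 1 of the 4 libraries compared, and the 6 rises became 3 without spawning replicate 2. After the first flush 4 rises were called without first-flush replicate 2. At the second flush 1 rise was called without replicate 2 of either stage and 2 without second-flush replicate 1, and 2 falls without second-flush replicate 2. After the second flush 3 falls were called without either library taken after the first flush.

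Gene 201998, of the DNAJB4 type like the yeast Hsp70 partner Sis1, followed the high spawning level of hspB. It had 232 and 220 RPKM at spawning, 96.8 and 87.7 at pinning, 55.2 and 74.1 at the first flush, 114 and 84.4 after it, 121 and 147 at the second flush, and 81.1 and 64.8 after that. It fell at pinning by 1.43 (SE 0.19, edgeR adjusted p = 9.23e-05) and was lower from end to start by a log2 change of -1.94 (SE 0.20, edgeR adjusted p = 8.67e-06). Its fall after the second flush (-0.93) was lost without second-flush replicate 2 or either library of the later stage.

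Gene 66759, a weak match to the same annotation, had the largest rise at the first flush. It had 11.7 and 12.9 RPKM at spawning, 13.6 and 17.1 at pinning, 116 and 105 at the first flush, 60.1 and 62.3 after it, 34.4 and 20.9 at the second flush, and 41.4 and 27.2 after that. It rose at the first flush by 2.62 (SE 0.24, edgeR adjusted p = 1.13e-05) and fell after it by 0.88 (SE 0.21, edgeR adjusted p = 0.00483). Its fall at the second flush (-1.03) was lost without second-flush replicate 2.

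Gene 216409, of the DNAJC9 type, a histone chaperone with a J domain in human cells, stood apart at the first flush with 41.5 and 34.5 RPKM, against 12.1 and 13.2 at pinning, while every other library lay between 8.94 and 16.5. It rose by 1.36 (SE 0.15, edgeR adjusted p = 4.73e-05) and fell after the flush by 1.35 (SE 0.15, edgeR adjusted p = 3.39e-05). The DNAJC7-type gene 185760, whose human relative links Hsp70 to Hsp90, had 38.6 and 32.4 RPKM at the first flush, against 14.1 and 14.3 at pinning (1.10, SE 0.14, edgeR adjusted p = 0.000115), and fell after it (-0.66).

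Gene 228326, a low-level J protein of the DNAJA5 type, ran the other way. It had 24.7 and 21.5 RPKM at spawning, 9.40 and 12.03 at pinning, 2.72 and 4.42 at the first flush, 20.3 and 18.1 after it, 5.52 and 6.93 at the second flush, and 6.73 and 6.24 after that. It fell at the first flush (-1.80), rose after it (2.39) and fell at the second flush (-1.49).

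The DNAJC19-type gene 191153, related to the J protein of the mitochondrial import motor, was highest after the first flush, with 140 and 96.2 RPKM against 51.3 and 53.5 at the first flush (1.14, SE 0.18, edgeR adjusted p = 0.000321). Its fall at the second flush (-0.81) was lost without replicate 1 of the stage after the first flush. The weak DNAJC7 match 191253 had 141 and 127 RPKM at pinning, against 36.1 and 39.1 at spawning (1.70), and was also higher from end to start (1.70). The DNAJB12-type gene 193214, with libraries between 67.5 and 83.6 RPKM, had the smallest range of stage means above 20 RPKM and was called in no comparison of stages.

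Among the 12 prolyl isomerases 4 rose and 1 fell at pinning, none rose and 1 fell at the first flush, 3 rose and 4 fell after it, and 2 rose and 3 fell at the second flush. With library totals alone 7 rose and none fell at pinning. From end to start 4 were higher and 3 lower. Shares called higher, 33.3% at pinning, 25% after the first flush and 33.3% from end to start, were near the 29.3%, 26.1% and 31.9% of all genes. Those called lower were 8.33%, 33.3% and 25%, beside 25.2%, 26% and 27.6%. At the first flush 0% were higher and 8.33% lower, beside 25.1% and 23.6%. Library totals alone called 2 rises there, and the class median ran from -0.20 to 0.05 over the fits. At the second flush 16.7% were higher and 25% lower, beside 11.3% and 11%. The fall at pinning was lost without any 1 of the 4 libraries compared and that at the first flush without pinning replicate 2. At the second flush no fall was called without second-flush replicate 1, and 1 fall without replicate 2, either pinning library or replicate 2 of the stage before. The 2 rises there became 0 without second-flush replicate 2, and 1 without replicate 1, replicate 1 of the stage before, or either library of spawning or pinning.

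The NIMA-interacting 4 type gene 194170 and the spliceosomal isomerase-like 3 gene 191429 rose at pinning, by 1.48 and 1.25. Isomerase D gene 194815, a cyclophilin of the kind that binds Hsp90, had 91.5 and 88.7 RPKM after the first flush, against 45.4 and 44.8 at the first flush (0.97, SE 0.13, edgeR adjusted p = 0.000129). Genes 194170, 191429 and 194815 were chosen after their values were seen. Cyclophilin B, gene 135889, had 152 and 165 RPKM at spawning and 140 to 213 in the later libraries, and was called in no comparison.

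Gene 195104, a weak match to isomerase-like 4, rose after the first flush to 58.5 and 54.8 RPKM, against 24.1 and 24.1 at the flush (1.20, SE 0.17, edgeR adjusted p = 0.00014). Of the 8 isomerases annotated with spliceosomal names 4 fell and 2 rose after the first flush, and 3 were lower and 1 higher from end to start. Of all genes 26% fell and 26.1% rose after the first flush, and 27.6% were lower and 31.9% higher from end to start.

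The assembly and metal chaperones are 6 genes annotated as BCS1, a mitochondrial ATPase that places an iron-sulfur protein into respiratory complex III, and 1 copper chaperone. At the first flush 2 rose and 1 fell, and after it 3 fell and 2 rose. That is 28.6% higher and 14.3% lower at the first flush, beside 25.1% and 23.6% of all genes. After it 28.6% were higher and 42.9% lower, beside 26.1% and 26%. The 2 rises at the first flush became 1 without first-flush replicate 1 and 4 without either library taken after it, and the 2 rises after it became 1 without either library of pinning or the first flush or without replicate 2 of the later stage. Gene 196029, a BCS1, had 129 and 131 RPKM at the first flush, against 52.1 and 50.5 at pinning, and every other library lay between 43.8 and 62.4. It rose at the first flush by 1.12 (SE 0.14, edgeR adjusted p = 7.52e-05) and fell after it by 1.38 (SE 0.14, edgeR adjusted p = 1.44e-05). BCS1 gene 70517 also rose at the first flush, to 87.4 and 72.9 RPKM, against 39.2 and 46.3 (0.68), a call lost without pinning replicate 1 or first-flush replicate 1. BCS1 gene 210088 fell after the first flush (-0.92). BCS1 gene 63145 lay between 11.2 and 21.5 RPKM, and gene 180828 between 0.0767 and 1.73. BCS1 gene 180594 was at 12 and 8.20 RPKM after the second flush, against 2.09 and 2.45 at the second flush, a rise of 2.10 (SE 0.32, edgeR adjusted p = 0.00296).

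The copper chaperone, gene 199351, a carrier that hands copper to other proteins, had 119 and 90.4 RPKM at spawning, 227 and 208 at pinning, 113 and 104 at the first flush, 274 and 204 after it, 136 and 149 at the second flush, and 143 and 173 after that. It rose at pinning by 0.93 (SE 0.18, edgeR adjusted p = 0.00104), fell at the first flush by 1.23 (SE 0.18, edgeR adjusted p = 0.000223), and rose after it by 1.12 (SE 0.18, edgeR adjusted p = 0.000338).

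Further genes with chaperone-like roles lie outside the rule because of how their hits are worded, and 12 of them were read beside the members, from a list made after the annotation was seen: 5 of the HSP20 family, 4 FK506-binding proteins, which are prolyl isomerases, the ATPases ClpB and ClpX, and 1 annotated as hypoxia up-regulated 1. Of these 3 rose and 4 fell at pinning, 2 rose and 2 fell at the first flush, 4 rose and 2 fell after it, 2 rose and 4 fell at the second flush, 1 rose and 1 fell after that, and 2 rose and 5 fell from end to start. Called higher were 25%, 16.7%, 33.3%, 16.7%, 8.33% and 16.7% in that order, beside 29.3%, 25.1%, 26.1%, 11.3%, 5.29% and 31.9% of all genes. Called lower were 33.3%, 16.7%, 16.7%, 33.3%, 8.33% and 41.7%, beside 25.2%, 23.6%, 26%, 11%, 2.89% and 27.6%. The small heat shock proteins of the HSP20 family hold unfolded proteins without ATP. The closest matches to that family, 188751 and 205955 (E values 1e-45 and 9e-56), are not described here. The most abundant gene with that annotation, 121172, is a weak match (E value 3e-10). It had 1259 and 1349 RPKM at spawning, 692 and 607 at pinning, 108 and 221 at the first flush, 965 and 778 after it, 781 and 575 at the second flush, and 1015 and 787 after that.

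The first-flush pair of 121172 lay far below all other libraries. It fell at the first flush by 2.20 (SE 0.30, edgeR adjusted p = 0.000315) and rose after it by 2.37 (SE 0.31, edgeR adjusted p = 0.000172). HSP20 gene 224184, also a weak match (E value 3e-18), rose after the first flush as well, to 37.0 and 43.7 RPKM, against 8.02 and 12.7 at the flush (1.93). The Hsp100 disaggregase gene 185786, annotated as ClpB, rose at the same step (0.85), with 33.6 and 29.3 RPKM against 17.0 and 17.2. Of the 12 genes outside the rule 4 were called higher at that step, 2 lower, and 6 were not called. Those that fell at that step are not described here.

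The 4 genes annotated as heat shock transcription factors, the activators of heat shock genes, went 0 higher and 2 lower at pinning, 3 and 0 at the first flush, and 0 and 3 after it. The shares of all genes called higher and lower were 29.3% and 25.2%, 25.1% and 23.6%, and 26.1% and 26% at these steps. Gene 44967 had 83.8 and 93.7 RPKM at the first flush, against 27.0 and 32.3 at pinning (1.36, SE 0.27, edgeR adjusted p = 0.00165), and fell after it (-1.43). The most abundant, gene 191939, a weak match (E value 6e-11), lay between 140 and 257 RPKM and was called in no comparison. The 3 trehalose synthesis genes went 0 higher and 2 lower at pinning, 2 and 0 at the first flush, and 0 and 3 after it. For these 3 genes the same shares of all genes apply. Trehalose is a sugar that protects proteins under stress. Of the 38 genes listed as antioxidant enzymes many, among them those annotated only as peroxiredoxin, rest on a match weaker than an E value of 1e-20. The 38 genes went 11 higher and 14 lower at pinning, 10 and 15 at the first flush, and 10 and 12 after it. Their shares called higher, 28.9%, 26.3% and 26.3%, were near those of all genes at these steps, 29.3%, 25.1% and 26.1%, and their shares called lower were 36.8%, 39.5% and 31.6%, beside 25.2%, 23.6% and 26%.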

How the data were processed

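RNA from 12 compost libraries of 6 stages, with about 7266000 to 9337000 reads each, was analysed. Per the file headers, the deposited counts are uniquely placed reads per gene, and the RPKM values as deposited are those counts scaled by gene length and by the library's total. The sources used here do not give the aligner, build or strandedness, so overlapping genes and close paralogs are uncertain. All 83 members matched a locus tag of strain H97 in RefSeq.

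Genes passing edgeR's filterByExpr (minimum count 10, minimum total 15), 8814 in all, were scaled by TMM (factors 0.834 to 1.11). They were fitted with edgeR 4.0.16 (R 4.3.3), robust quasi-likelihood, with a term per stage over all 12 libraries (6 residual degrees of freedom, common dispersion 0.022). Tests were two-sided. The SE is the log2 change over the root of F. The fit was tested on simulated data. Alternatives were DESeq2 1.42.0, its size factors in edgeR, library totals, no filter, limma 3.58.1 on log2(RPKM + 1), a replicate block and leaving out each library.

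For each comparison the text names up to 4 rises and 4 falls among called members with non-overlapping libraries and at least 20 RPKM in the higher stage, the most abundant member of each class, the widest and narrowest ranges, and Hsp70 and Hsp90 members. Small classes are given further. The values of 1 member are not reported here. Members and lists were chosen with earlier results of these data known.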

Additional observations from a re-analysis of the deposited data

Results flagged for a closer look

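The change after the second flush differed from the change after the first flush, by edgeR's test of that difference, in 22 of the 31 genes named for their changes between stages or their level, beside 36 of all 83 members and 39.4% of all genes. Many of the 31 were picked for large changes at steps that enter this difference, so their number is no measure of how common it is. Each value here is the second-flush step minus the first-flush step on the log2 scale. Positive differences stood at 1.02 for TRiC gamma (gene 189151), 1.15 for eta (189553) and 0.91 for alpha (190799). Among J proteins they were 0.96 for 185760, 0.86 for 191253, 1.67 for 216409 and 1.15 for 66759. Disulfide isomerases 192046 and 193116 stood at 0.91 and 1.76, and BCS1 gene 196029 at 1.35.

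Negative differences were -0.92 for Hsp60 (195187), -1.73 and -1.0 for the Hsp10 genes 223122 and 134472, -1.04 for DnaK (192819) and -1.57 for GrpE (115136). J proteins 191153, 201998 and 228326 stood at -1.01, -1.51 and -2.38. Prefoldin subunit 1 (189311) was at -0.75, isomerase-like 4 gene 195104 at -1.29, the copper chaperone 199351 at -1.01 and disulfide isomerase 62224 at -1.99. The differences of 62224, 189553, 190799 and 66759 were lost in 12, 3, 1 and 2 alternatives. No group had enough libraries for a test of single outlying libraries. The second-flush step and the first-flush step share no library.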

How the results depend on the processing

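Counts of members called moved by more than 1.5 times in few alternatives. DESeq2 called 4 members lower after the second flush against the second flush. Library totals alone and limma each called 31 higher at the first flush against pinning. Leaving out 1 library at a time, with the lone library of a stage assumed to vary like the others, gave 15 to 26 lower at pinning, 12 to 25 higher at the first flush, 8 to 20 higher and 4 to 12 lower at the second flush, and 1 to 3 higher and 1 to 8 lower after it. Leaving out a compared library mostly left fewer calls over all genes as well. No named gene changed direction. The 43 named calls held under all alternatives except 1 under the replicate block and 16 under single left-out libraries, in genes 201998, 139452, 191153, 61050 and 66759. Counts per role class were run under the same alternatives after the data were seen, and library totals moved 20 of 96 of them by over 1.5 times.

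The correlations of the deviations of same-numbered libraries lay between -0.239 and 0.204 and had no common sign. With 2 libraries per stage they cannot settle whether the numbers pair the samples. A fit with replicate number as a block called 25 higher and 23 lower at pinning, 19 and 18 at the first flush, 20 and 34 after it, 20 and 11 at the second flush, 2 and 2 after that, and 72 over the 6 stages. The 3 members with a mean under 5 RPKM rest on few reads.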
